A study of Mus musculus with 8 samples.

Results

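The RNA interference machinery was described here through 10 genes, matched by symbol among the 55536 genes of the count table. These 10 genes were chosen with earlier results of these data known. They were the 4 Argonautes Ago1 to Ago4, the nucleases Dicer1 and Drosha, the Drosha partner Dgcr8, and the 3 TNRC6 scaffold genes Tnrc6a, Tnrc6b and Tnrc6c. All 10 were found, and all 10 had enough counts to be tested. The cells were alphaTC6, a mouse pancreatic alpha cell line labelled as wild type, and poly(A) RNA was sequenced 48 h after reverse transfection with the lipid reagent RNAiMAX Lipofectamine. A small interfering RNA (siRNA) treatment against Klf4, a zinc finger transcription factor, was given to 4 cultures and a scramble siRNA to the other 4, which the design text calls biological replicates. By their labels, 2 scramble and 3 Klf4 siRNA cultures belonged to batch 1, the other 2 scramble cultures and 1 Klf4 siRNA culture to batch 2. Every culture was thus transfected with an siRNA, and no culture without siRNA was analysed here. The labels number the batches without saying what set them apart, and their extraction protocol speaks of islets although each sample is labelled as the cell line. All results come from this single line.

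Small RNAs silence genes through a short chain of proteins. In the nucleus, Drosha and its RNA-binding partner Dgcr8 form the Microprocessor, which cuts hairpins out of primary microRNA transcripts. Dicer1 then trims the hairpins to mature duplexes in the cytoplasm. An Argonaute protein takes up a strand of such a duplex, or of an siRNA, and uses it to find matching mRNAs. Ago2 is the Argonaute that cuts well-matched targets and so carries out siRNA knockdown, whereas Tnrc6 proteins bind Argonautes and recruit the enzymes that deadenylate and decap partly matched targets. In islets, microRNAs made by this route are known for their part in endocrine cell identity and hormone secretion.

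Klf4, the targeted gene, had 35.1 to 46.8 CPM (counts after TMM scaling, expressed relative to library size) in the scramble libraries and 11.5 to 19.8 CPM after Klf4 siRNA, so the 2 groups did not overlap. Totals were 45954151 to 64185987 counts per library. All 7 alpha cell markers were tested, and their summed level was 5440 to 5750 CPM in batch 1 and 12400 to 13700 CPM in batch 2, a difference carried by Gcg, the glucagon gene (log2 change of 2.80 in batch 2, edgeR adjusted p = 2.17e-17). Of the 18 markers of other pancreatic or non-endocrine cell types, Ins1, Ins2, Pdx1 and Prss1 had 0 counts in all libraries. The 6 beta cell markers summed to at most 3.93 CPM in any library, and the 4 acinar and ductal markers to 1.09 to 1.64 CPM in batch 1 and 3.80 to 4.66 CPM in batch 2, where Sox9 was higher (log2 difference 1.61, adjusted p = 6.95e-10). The 4 delta, gamma and epsilon cell markers summed to 0.149 to 0.452 CPM and the 4 immune, endothelial and mesenchymal markers to less than 1 CPM in every library.

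Promoter sequences are shown for the genes on which the comparisons below turn: Ago1 and Drosha, which changed after Klf4 siRNA, and Ago4, which differed between batches, with its neighbour Ago3. RefSeq sequences (build GRCm38.p6) were matched for 9 of the 10 genes, all but Ago2. The 250 bases before the most upstream RefSeq start of each gene are given from 5′ to 3′ on the gene's strand. By the GENCODE gene positions printed below, this start lay 14 bases inside the gene for Ago3 and Ago4. It lay 48 bases outside the gene for Ago1 and at the gene's 5′ end for Drosha. Capitals mark a CACCC core (CACCC or GGGTG), the short motif bound by Klf4 and other KLF proteins, or a GC box (GGGCGG or CCGCCC), to which Sp and KLF proteins bind. Matches were counted on both strands, and matches that overlap were each counted.
Ago3 promoter, chr4:126429543-126429792, minus strand: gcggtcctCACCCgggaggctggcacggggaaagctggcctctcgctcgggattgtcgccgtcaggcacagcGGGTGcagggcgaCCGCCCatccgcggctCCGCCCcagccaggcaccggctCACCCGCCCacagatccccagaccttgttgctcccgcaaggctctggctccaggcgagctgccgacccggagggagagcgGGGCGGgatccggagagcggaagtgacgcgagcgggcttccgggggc
Ago1 promoter, chr4:126468632-126468881, minus strand: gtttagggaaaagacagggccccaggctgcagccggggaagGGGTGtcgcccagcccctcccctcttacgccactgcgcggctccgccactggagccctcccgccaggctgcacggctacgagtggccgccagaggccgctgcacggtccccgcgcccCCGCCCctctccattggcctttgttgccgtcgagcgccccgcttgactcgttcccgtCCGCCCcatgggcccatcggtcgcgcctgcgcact
Ago4 promoter, chr4:126533459-126533708, minus strand: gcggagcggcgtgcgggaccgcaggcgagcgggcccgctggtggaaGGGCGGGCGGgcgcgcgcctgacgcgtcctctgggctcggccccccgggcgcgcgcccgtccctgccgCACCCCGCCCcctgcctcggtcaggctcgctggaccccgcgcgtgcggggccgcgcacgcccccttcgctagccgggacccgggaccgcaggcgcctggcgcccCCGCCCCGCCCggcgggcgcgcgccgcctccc
Drosha promoter, chr15:12824565-12824814, plus strand: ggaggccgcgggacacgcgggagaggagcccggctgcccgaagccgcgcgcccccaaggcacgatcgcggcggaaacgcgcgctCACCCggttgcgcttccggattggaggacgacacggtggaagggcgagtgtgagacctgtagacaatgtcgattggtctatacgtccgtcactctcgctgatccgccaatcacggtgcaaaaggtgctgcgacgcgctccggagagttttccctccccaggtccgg
The Ago4 window was 85.6% G or C with 46 CpG dinucleotides, against 73.6% and 27 for Ago3, 72.4% and 26 for Ago1, and 66.4% and 33 for Drosha. The median over 32851 listed promoters was 52.4% with 6 CpGs. A CACCC core was present in 5 of the 9 members' windows and in 52.0% of all windows of this length. A GC box was present in 6 of the 9 and in 32.7% of all. The Drosha window had 1 CACCC core and no GC box, and that of Ago1 had 1 CACCC core and 2 GC boxes. Such matches describe the letters only, and binding was not measured here.

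Dgcr8 is known to be regulated by its own complex, since the Microprocessor cuts hairpins in the Dgcr8 mRNA. RefSeq places 2 annotated microRNA hairpins in Dgcr8 exons, Mir1306 in coding sequence and Gm24572, which gives mmu-miR-3618, in untranslated sequence. The Mir1306 hairpin and the mature RNAs are printed because Drosha is known to act on this mRNA. In the mature RNAs, capitals mark the seed (bases 2 to 8), and the 4 seeds differ from each other.
Mir1306 hairpin (Dgcr8 coding exon), chr16:18284239-18284317, minus strand: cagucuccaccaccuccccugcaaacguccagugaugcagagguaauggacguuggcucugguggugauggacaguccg
mmu-miR-1306-5p, chr16:18284288-18284310, minus strand: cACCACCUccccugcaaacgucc
mmu-miR-1306-3p, chr16:18284248-18284268, minus strand: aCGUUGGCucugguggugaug
mmu-miR-3618-5p, chr16:18284602-18284623, minus strand: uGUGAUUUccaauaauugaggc
mmu-miR-3618-3p, chr16:18284562-18284583, minus strand: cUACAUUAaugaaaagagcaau

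Levels of the 10 mRNAs were compared with each other per kilobase of exon sequence, as CPM divided by the length of all annotated exons of the gene. Drosha mRNA was the most abundant, at 32.5 ± 1.41 CPM per kilobase (SD, n = 8), followed by Tnrc6a at 18.6 ± 1.03 and Ago2 at 15.6 ± 1.01. Tnrc6c (12.3 ± 0.520 CPM per kilobase) and Ago1 (9.76 ± 1.10) came next. Dicer1 (6.79 ± 0.198), Dgcr8 (6.44 ± 0.233) and Tnrc6b (5.46 ± 0.447) lay close together. Ago3 had 2.62 ± 0.295 and Ago4 only 0.191 ± 0.159 CPM per kilobase. In each of the 8 libraries every gene lay above the next in this order. Across libraries, however, the ranges of Tnrc6a and Ago2, of Dicer1 and Dgcr8, and of Dgcr8 and Tnrc6b overlapped. With the length of the longest transcript in place of all exons, Dicer1 and Dgcr8 both had a mean of 11.5 CPM per kilobase and came before Ago1 in the order. By either length, Drosha mRNA exceeded that of its partner Dgcr8. Of Dgcr8 exon bases, 10.7% also belong to Trmt2a on the opposite strand, and the authors' use of strand is not given in the sources used here.

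**Figure D1:**
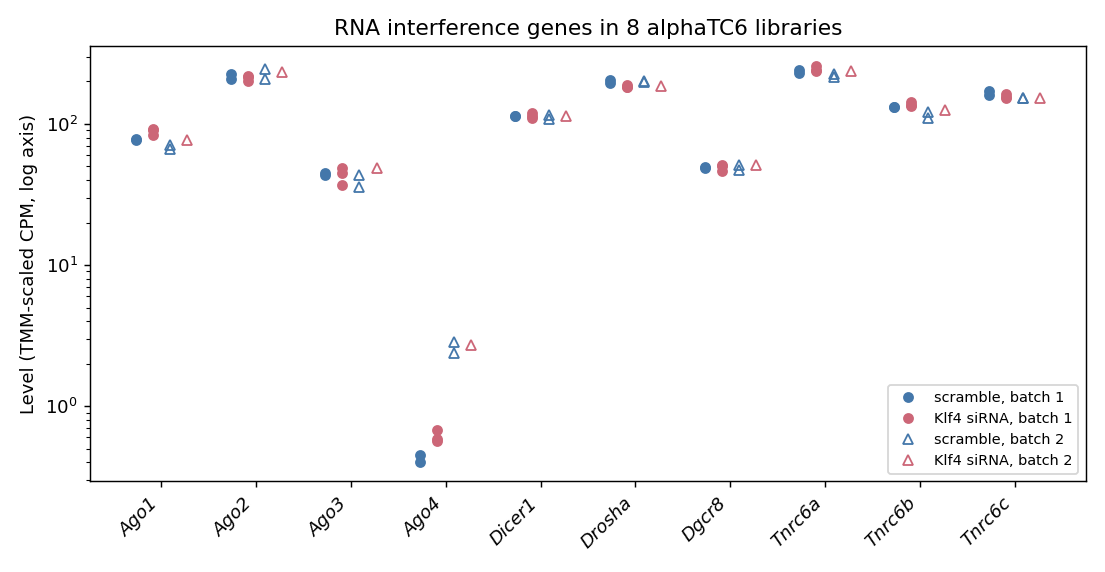
Level of each of the 10 genes (TMM-scaled CPM, log axis) in the 8 libraries. Filled circles are batch 1 and open triangles batch 2, blue for scramble and red for Klf4 siRNA. For 9 genes the 8 points lie close together, whereas Ago4 lies between 0.404 and 0.679 CPM in batch 1 and between 2.37 and 2.86 CPM in batch 2.

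Among the 4 Argonautes, Ago2 and Ago1 made up most of the mRNA. By level per kilobase, Ago2 took 51.6 to 56.5% of the Argonaute total in the libraries of batch 1 and 56.6 to 59.6% in batch 2. Ago1 took 33.7 to 40.2% and 29.9 to 32.1%. The mean share of Ago3 was 9.35 ± 0.831% (SD, n = 5) and 9.13 ± 0.769% (SD, n = 3). Ago4 took 0.216 to 0.341% in batch 1 and 1.33 to 1.41% in batch 2. The Argonaute that cuts targets was therefore the leading Argonaute mRNA in all 8 libraries.

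The effect of Klf4 siRNA was assessed against scramble, adjusting for batch. Ago1 rose and Drosha fell after Klf4 siRNA, each by a small amount, and the other 8 genes did not pass an adjusted p of 0.05. This share, 2 of 10, stands beside 11.7% of all 16333 tested genes. By direction, 1 of 10 rose, where 4.88% of all tested genes rose, and 1 of 10 fell, where 6.81% fell. The median log2 fold change was 0.053 over the 10 genes and 0 over all tested genes. At an unadjusted p under 0.05 there were 4 of 10, beside 23.9% of all tested genes. Gcg fell after Klf4 siRNA (log2 fold change -0.18, edgeR adjusted p = 0.0095), and its part in the changes below was not tested. In bulk RNA, fewer cells of a type and less RNA per cell cannot be told apart.

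Ago1, an Argonaute without strong cutting activity (ENSMUSG00000041530, chromosome 4, 126435012 to 126468583, minus strand, GRCm38), stood at 77.7 and 76.4 CPM in scramble cultures of batch 1 and at 90.5, 91.7 and 83.5 CPM in Klf4 siRNA cultures of the same batch. The corresponding levels for batch 2 were 70.9 and 66.2 CPM with scramble and 76.9 CPM with Klf4 siRNA. Within each batch every Klf4 siRNA library was above every scramble library, whereas across batches the treatments overlapped. The share of all tested genes separated within a batch was not counted. The log2 fold change was 0.19 (SE 0.035, edgeR quasi-likelihood, adjusted p = 0.0011), which corresponds to 113.9% of scramble. The difference of mean log2 CPM was 0.20 within batch 1 and 0.17 within batch 2. Ago1 still passed whichever library was left out (largest edgeR adjusted p 0.0138). Without the batch term its log2 fold change was 0.23 and its adjusted p 0.128.

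Drosha, the nuclear nuclease that starts microRNA processing (ENSMUSG00000022191, chromosome 15, 12824815 to 12935291, plus strand), had 205.6, 195.7, 198.2 and 200.3 CPM in scramble replicates 1 to 4 and 184.0, 183.8, 184.8 and 190.0 CPM in Klf4 siRNA replicates 1 to 4. The treatments did not overlap, which was so for 10.5% of all tested genes. Drosha was the only member of which this was true. Its log2 fold change was -0.11 (SE 0.027, edgeR adjusted p = 0.0099), which corresponds to 92.7% of scramble, and the difference of mean log2 CPM was -0.11 within each batch. The call was lost without scramble replicate 1 (log2 fold change -0.090, adjusted p = 0.121) and without Klf4 siRNA replicate 3 (-0.11, 0.065). It was also lost with batch 1 alone (adjusted p = 0.062), without the batch term (0.083) and in edgeR's likelihood ratio test (0.079).

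Dgcr8 (chromosome 16, 18253948 to 18289246, minus strand), whose mRNA carries the hairpins printed above, had 49.9, 49.0, 50.8 and 47.2 CPM in scramble replicates 1 to 4 and 50.4, 46.8, 51.2 and 51.4 CPM in Klf4 siRNA replicates 1 to 4. These ranges overlapped, and the log2 fold change was 0.024 with a 95% interval of -0.054 to 0.10 (edgeR adjusted p = 0.769). Dicer1, the cytoplasmic nuclease (chromosome 12, 104687742 to 104751952, minus strand), had 107.7 to 115.7 CPM in scramble and 110.4 to 118.7 CPM in Klf4 siRNA libraries, and its log2 fold change was 0.014 (95% interval -0.052 to 0.080, edgeR adjusted p = 0.852). Both genes varied little, with a span of 0.136 for Dgcr8 and 0.140 for Dicer1 between the highest and lowest library in log2 CPM.

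Ago2, the Argonaute that cuts siRNA targets (chromosome 15, 73095844 to 73184935, minus strand, with 1.56% of its exon bases shared with Chrac1 on the opposite strand), had 225.3, 207.6, 243.9 and 208.6 CPM in scramble replicates 1 to 4. After Klf4 siRNA it had 214.0, 203.0, 234.1 and 218.7 CPM in replicates 1 to 4. The treatments overlapped, and the log2 fold change was -0.0020 (95% interval -0.12 to 0.12, edgeR adjusted p = 0.990). In Ago3 (chromosome 4, 126331704 to 126429556, minus strand) the libraries differed without following treatment or batch: scramble replicate 4 had 35.5 and Klf4 siRNA replicate 2 had 36.8 CPM, whereas the other 6 libraries had 43.6 to 48.9 CPM. Its log2 fold change was 0.089 with the widest interval of the 10 genes, -0.25 to 0.43 (edgeR adjusted p = 0.777).

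Of the TNRC6 scaffolds, Tnrc6a (chromosome 7, 123123885 to 123195296, plus strand) had 213.8 to 240.7 CPM with scramble and 236.8 to 258.7 CPM with Klf4 siRNA (log2 fold change 0.081, 95% interval 0.015 to 0.15, edgeR adjusted p = 0.113). Tnrc6b (chromosome 15, 80711313 to 80941085, plus strand) had 109.6 to 132.4 CPM with scramble and 125.2 to 144.1 CPM with Klf4 siRNA (0.083, 0.012 to 0.15, adjusted p = 0.131). Within batch 1, the 3 Klf4 siRNA libraries lay above both scramble libraries for Tnrc6b but not for Tnrc6a. How many of all tested genes were separated in this way was not counted. Both genes passed when Klf4 siRNA replicate 4 was left out (edgeR adjusted p = 0.039 for Tnrc6a and 0.041 for Tnrc6b). Tnrc6c (chromosome 11, 117654289 to 117763439, plus strand) was at -0.045 in log2 fold change (95% interval -0.11 to 0.018, adjusted p = 0.400).

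**Figure D2:**
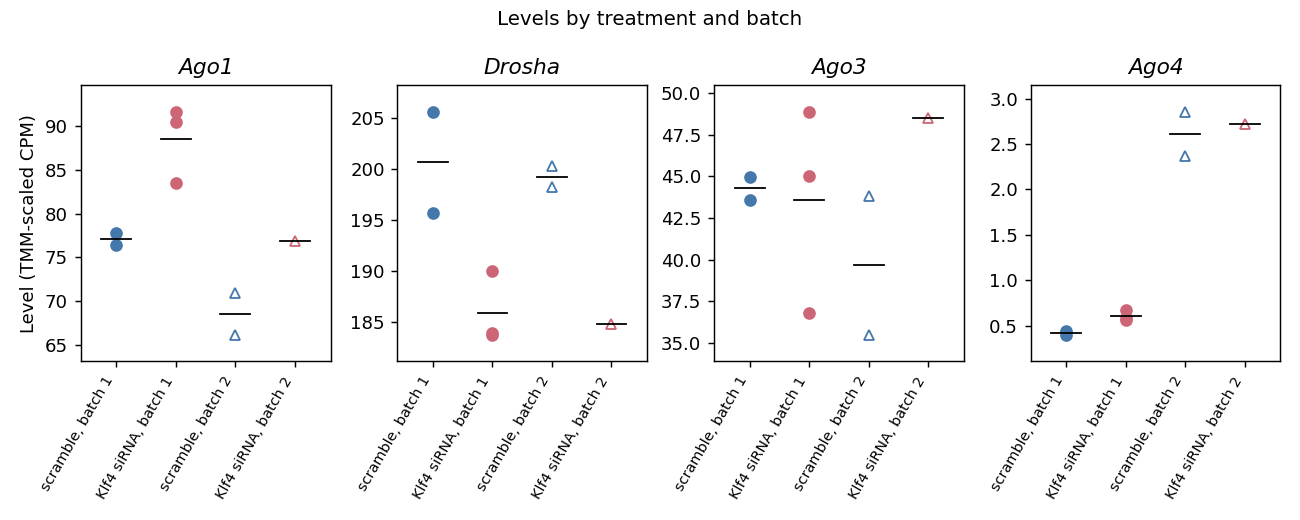
Levels (TMM-scaled CPM, linear axes that do not start at 0) of Ago1, Drosha, Ago3 and Ago4 by treatment and batch, with a point for each library and a line at the mean of each group. Klf4 siRNA libraries lie above scramble libraries in each batch for Ago1 and below all of them for Drosha, Ago3 follows neither treatment nor batch, and Ago4 separates the batches.

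The batches were compared next, adjusting for treatment. Ago4 was 5.13-fold higher in batch 2, by far the largest difference among the 10 genes, whereas Ago1, Tnrc6b and Tnrc6c were slightly lower. This share, 4 of 10, stands beside 32.7% of all tested genes. By direction, 1 of 10 was higher, where 16.8% of all tested genes were, and 3 of 10 were lower, where 15.9% were. A rise of at least 1 on the log2 scale was found for Ago4 alone, and for 3.11% of all tested genes. At an unadjusted p under 0.05 there were 5 of 10, beside 41% of all tested genes. The libraries of the batches did not overlap for Ago4, Tnrc6b and Tnrc6c, 3 of 10 genes, and for 29.4% of all tested genes. The summed alpha cell markers and Sox9 moved with batch too, by the values given above, and their part in these differences was not tested. As only a number labels each batch, differences of culture, library preparation or sequencing cannot be told apart here.

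Ago4 (ENSMUSG00000042500, chromosome 4, 126489541 to 126533472, minus strand), an Argonaute whose loss is known to disturb male germ cells, had few reads. Raw counts in batch 1 were 25 and 19 with scramble and 28, 34 and 36 after Klf4 siRNA in the same batch. For batch 2 they were 183 and 137 with scramble and 143 with Klf4 siRNA. Every library of batch 2 was above every library of batch 1, in each treatment: 0.448 and 0.404 CPM (scramble) and 0.569, 0.588 and 0.679 CPM (Klf4 siRNA) in batch 1, against 2.86 and 2.37 CPM (scramble) and 2.72 CPM (Klf4 siRNA) in batch 2. Means were 0.537 ± 0.111 CPM (SD, n = 5) in batch 1 and 2.65 ± 0.252 CPM (SD, n = 3) in batch 2. The log2 difference was 2.36 (SE 0.15, 95% interval 2.04 to 2.68, edgeR adjusted p = 1.75e-10). It was 2.61 in the scramble libraries alone (edgeR adjusted p = 2.01e-06) and 2.27 to 2.61 when single libraries were left out. Of all tested genes, 95 (0.582%), Ago4 included, were higher in batch 2 by at least this much. The 2 pseudogenes annotated within the Ago4 span, Gm12934 and Gm12935, share no exon base with it and had 0 counts in every library.

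Ago4 lies beside Ago1 and Ago3, all on the minus strand of chromosome 4. Ago3 and Ago1 are 5455 bases apart, and Ago1 and Ago4 20957 bases. Ago1 was lower in batch 2, with a log2 difference of -0.18 (SE 0.036, edgeR adjusted p = 0.00052), and Ago3 had a log2 difference of -0.021 (95% interval -0.37 to 0.33, adjusted p = 0.933). The nearest tested protein-coding genes on either side of the 3 Argonautes were Tekt2 (log2 difference 0.30, edgeR adjusted p = 0.574, at a mean of 0.176 CPM) and Clspn (-0.019, adjusted p = 0.706). Of these 5 neighbouring genes, Ago4 alone was called higher in batch 2, beside 16.8% of all tested genes.

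Ago4 mRNA did not pass the test of treatment (log2 fold change 0.22, 95% interval -0.11 to 0.55, edgeR adjusted p = 0.439). Within batch 1 the 3 Klf4 siRNA libraries lay above both scramble libraries, at raw counts of 19 to 36. The share of all tested genes separated in this way, 2 libraries against 3, was not counted. With batch 1 alone the log2 fold change was 0.51 and the edgeR adjusted p 0.311. The batches hold unequal numbers of each treatment, and without the batch term the sign turned (-0.43, adjusted p = 0.861).

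Among the other Argonautes, Ago2 had a log2 difference between batches of 0.099 (95% interval -0.023 to 0.22, edgeR adjusted p = 0.208). Without scramble replicate 4 it was 0.16 and passed (adjusted p = 0.0025), and with no filter on low counts it passed at 0.096 (adjusted p = 0.028). Drosha, Dgcr8 and Dicer1 had log2 differences of -0.0097, 0.015 and -0.020 between batches, and their 95% intervals lay between -0.089 and 0.095 (edgeR adjusted p = 0.831, 0.816 and 0.688). None of the 3 microRNA-processing genes passed in this comparison, beside 32.7% of all tested genes.

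All 3 TNRC6 scaffolds had negative differences. Tnrc6b had 131.8, 132.4, 144.1, 136.8 and 133.1 CPM in the libraries of batch 1 and 120.7, 109.6 and 125.2 CPM in those of batch 2, a log2 difference of -0.17 (SE 0.035, edgeR adjusted p = 0.00073). Tnrc6c had 153.4 to 170.2 CPM in batch 1 and 152.0 to 152.7 CPM in batch 2 (-0.090, SE 0.031, adjusted p = 0.031). Tnrc6a did not pass (-0.079, 95% interval -0.15 to -0.010, adjusted p = 0.074). Tnrc6b passed in every fit that left out a library, but Tnrc6c did not pass without scramble replicate 1, 3 or 4 or without Klf4 siRNA replicate 1 or 3, where its adjusted p was 0.0503 to 0.181. It was also lost in edgeR's likelihood ratio test (0.118) and among genes with a mean of at least 5 CPM (0.063). Tnrc6a passed as well without Klf4 siRNA replicate 4 (adjusted p = 0.022) and with library size alone (-0.12, adjusted p = 0.023).

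**Figure D3:**
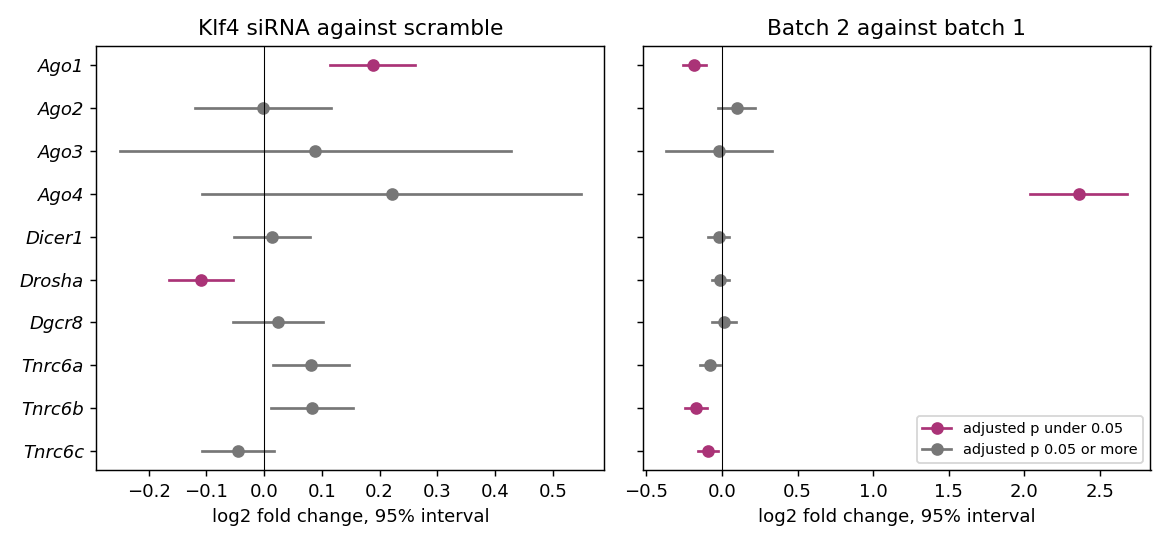
Log2 fold change of each gene, with its 95% interval from the edgeR fit, after Klf4 siRNA (left) and in batch 2 (right). Genes past an adjusted p of 0.05 are coloured: Ago1 (0.19) and Drosha (-0.11) on the left, and Ago4 (2.36), Ago1 (-0.18), Tnrc6b (-0.17) and Tnrc6c (-0.090) on the right, on axes of different range.

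Whether the change after Klf4 siRNA differed between batches was tested with an interaction term, which rests on 1 Klf4 siRNA library in batch 2. None of the 10 genes passed (edgeR adjusted p = 0.999 for each), and 0 had an unadjusted p under 0.05. DESeq2, limma-voom and edgeR's likelihood ratio test also called 0 of them. Over all genes 0% passed, with 3.31% at an unadjusted p under 0.05. The largest interaction estimates were those of Ago4 (-0.46, 95% interval -1.13 to 0.21) and Ago3 (0.32, -0.40 to 1.03).

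Over the 8 libraries, Ago4 had the widest range of the 10 genes (2.72 in log2 CPM), and the profiles most like it were looked for among 12712 genes with a mean of at least 1 CPM. Likeness was the root mean square difference of log2 CPM, each profile centred on its own mean. The closest were Meg3 (0.198), a long noncoding RNA of an imprinted region that carries many microRNAs, Csn3 (0.207), which encodes kappa-casein, and Epha6 (0.207), an ephrin receptor gene. The median over all these genes was 1.11. Their log2 differences between batches were 2.04, 2.15 and 2.16. All 8 points of each comparison share the same libraries, so the likeness is a description of these cultures.

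The other genes of the pathway were taken from 4 lists covering hairpin processing and export, Argonaute loading, mRNA decay, and small RNA tailing and turnover. Of 65 genes found among the identifiers, 61 were tested, and after Klf4 siRNA 7 rose and 2 fell (14.8%, beside 11.7% of all tested genes), with a median log2 fold change of 0.020. Between batches 7 were higher and 13 lower in batch 2 (32.8%, beside 32.7%), with a median of -0.030. With both directions together, these shares were near those of all tested genes. By direction after Klf4 siRNA, 7 of 61 rose, where 4.88% of all tested genes rose, and 2 of 61 fell, where 6.81% fell. Between batches, 16.8% of all tested genes were higher and 15.9% lower in batch 2. In edgeR's likelihood ratio test, 13 of the 61 passed between batches, beside 4653 of all 16333 tested genes.

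Of 11 tested genes for hairpin processing and export, 0 passed after Klf4 siRNA with edgeR, DESeq2, limma-voom or edgeR's likelihood ratio test, beside 11.7% of all tested genes with edgeR. At an unadjusted p under 0.05 there were 2, beside 23.9% of all tested genes. Xpo5, which exports hairpins to the cytoplasm, was at -0.054 in log2 fold change (edgeR adjusted p = 0.220), and the Dicer partner Tarbp2 at 0.096 (adjusted p = 0.278). Lin28a and Lin28b, which block let-7 maturation, reached no more than 5 and 1 counts. Between batches, 2 genes were higher and 2 lower (36.4%, beside 32.7% of all tested genes), and in the likelihood ratio test 2 of the 11 passed. Ddx17 and Ddx5, related helicases that join the Microprocessor, differed in opposite directions: Ddx17 had a log2 difference of -0.24 and Ddx5 one of 0.16 (edgeR adjusted p = 0.00028 and 0.00059). Khsrp, a hairpin-binding protein, had -0.089 (adjusted p = 0.017) and lost its call on removal of scramble replicate 1 or 3 (adjusted p = 0.064 and 0.054). Removal of Klf4 siRNA replicate 3 ended the Khsrp call too (0.177), as did the likelihood ratio test (0.151) and scramble libraries alone (0.157).

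Among 16 genes for Argonaute loading and partner proteins, Tsn alone passed, in both comparisons (6.25% in each, beside 11.7% of all tested genes for treatment and 32.7% for batch). Tsn encodes translin, part of a nuclease that removes the discarded siRNA strand. Its log2 change was 0.10 after Klf4 siRNA and 0.090 in batch 2 (edgeR adjusted p = 0.044 and 0.038). Neither call was firm: the adjusted p rose to 0.267 for treatment and 0.195 for batch without scramble replicate 1. The treatment call was also lost without scramble replicates 2 or 4 or Klf4 siRNA replicates 2 or 4, and the batch call without scramble replicates 2, 3 or 4 or Klf4 siRNA replicate 1. With library size alone the adjusted p was 0.083 for treatment and 0.264 for batch, and in the likelihood ratio test 0.194 and 0.155. The batch call of Tsn was also lost with no filter (0.055) and in DESeq2 (0.056), and its treatment call without the batch term (0.475). The chaperone gene Hsp90aa1, whose product helps to load duplexes, was at 0.065 in log2 fold change (adjusted p = 0.188).

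In the decay list, 6 of 25 genes passed after Klf4 siRNA (24%, beside 11.7% of all tested genes), 4 higher and 2 lower. Xrn1, the cytoplasmic 5′ to 3′ exonuclease that degrades decapped mRNA, fell from a mean of 35.8 to 29.3 CPM, a log2 fold change of -0.30 (SE 0.057, edgeR adjusted p = 0.0030). Cnot11 and Cnot6l, subunits of the CCR4-NOT deadenylase complex that Tnrc6 proteins recruit, rose, at 0.21 and 0.15 in log2 fold change (edgeR adjusted p = 0.00024 and 0.0015). After Klf4 siRNA these 3 genes passed in every fit that left out a library, but without the batch term Xrn1 (0.052) and Cnot6l (0.155) did not. The called subunits of this complex went both ways: Cnot8, a deadenylase subunit named here after its values were seen, fell by 0.21 on the log2 scale (edgeR adjusted p = 0.0042), a call lost without scramble replicate 1 (0.060). The other 7 tested Cnot genes did not pass. Between batches 11 of 25 passed (44%, beside 32.7%), 3 higher and 8 lower in batch 2. In edgeR's likelihood ratio test 7 of 25 passed, beside 4653 of all 16333 tested genes. The decapping factors Patl1 and Dcp1a had log2 differences of -0.32 and -0.32, and Cnot6l one of -0.18 (edgeR adjusted p = 3.94e-08, 6.01e-05 and 0.00016).

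Of 9 tested genes for small RNA tailing and turnover, 2 passed after Klf4 siRNA in either direction (22.2%, beside 11.7% of all tested genes). Both rose, where 4.88% of all tested genes rose, and none of the 9 fell, where 6.81% fell. Tent2, a cytoplasmic poly(A) polymerase that adds bases to microRNA ends, rose with a log2 fold change of 0.23 (SE 0.043, edgeR adjusted p = 0.0010). Tut1, a terminal uridylyltransferase, rose by 0.14 (adjusted p = 0.0088), a call lost without scramble replicate 1 (0.065) or Klf4 siRNA replicate 3 (0.114), with batch 1 alone (0.134) and without the batch term (0.323). In batch 2, Tut1 and Tut4, which adds uridines to microRNA precursors, were lower by log2 differences of -0.27 and -0.18, and Dis3l2, the exonuclease that degrades such precursors, was higher by 0.23 (edgeR adjusted p = 4.98e-06, 0.00031 and 2.00e-05).

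**Figure D4:**
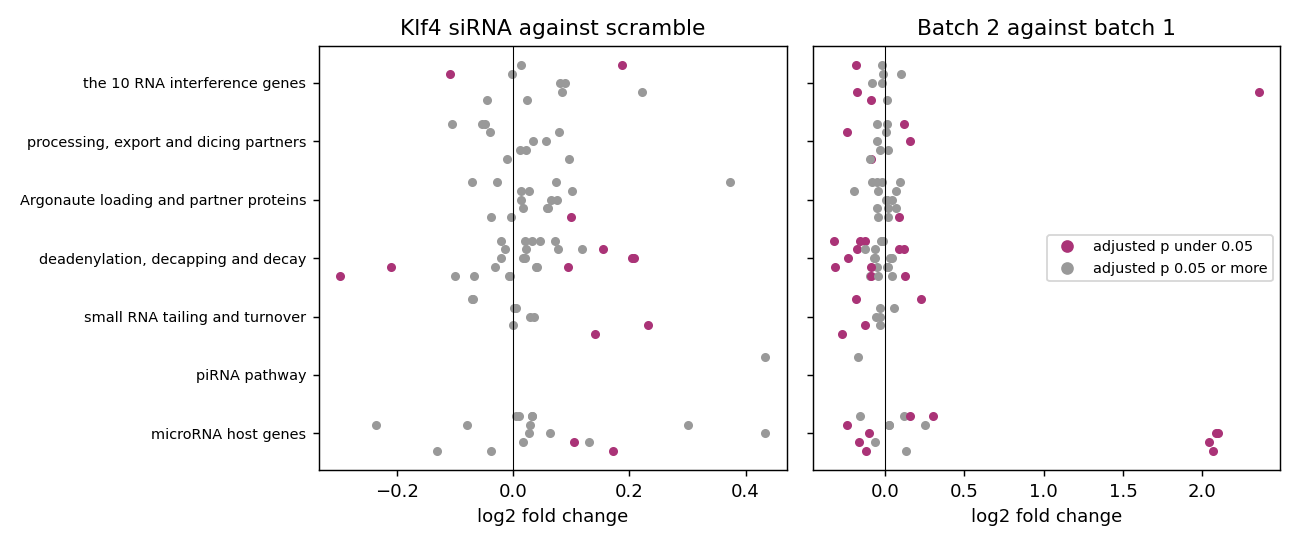
Log2 fold change of every tested gene of the RNA interference set and of the pathway lists after Klf4 siRNA (left) and in batch 2 (right). Each point is a gene, spread vertically within its list for legibility, and coloured where the adjusted p was under 0.05. On the right, Ago4 (2.36) and 4 microRNA host genes (2.04 to 2.10) stand apart from the other genes.

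Host genes of microRNAs were examined as transcripts that feed the machinery. Of 17 tested, 2 passed after Klf4 siRNA in either direction (11.8%, beside 11.7% of all tested genes). Both rose, where 4.88% of all tested genes rose: Pank3 (log2 fold change 0.17, edgeR adjusted p = 0.0063) and Smc4 (0.11, adjusted p = 0.017). Pank3, a pantothenate kinase gene, did not pass without scramble replicate 1 (0.054) or Klf4 siRNA replicate 3 (0.065), and Smc4, a condensin subunit gene, not without scramble replicate 1 (0.092) or 2 (0.154). Both calls were lost without the batch term (0.116 for Pank3 and 0.108 for Smc4), that of Pank3 also with library size alone (0.064) and that of Smc4 in the likelihood ratio test (0.161). Between batches 10 of 17 passed (58.8%, beside 32.7%), 6 higher and 4 lower in batch 2. Meg3 and Rian, noncoding RNAs of the same imprinted region, were higher with log2 differences of 2.04 and 2.10 (edgeR adjusted p = 1.01e-13 for each), from means of 4.75 and 6.49 CPM in batch 1 to 19.1 and 27.4 CPM in batch 2. Mirg, the next transcript of that region, and Mir124-2hg, chosen here after their values were seen, had log2 differences of 2.09 and 2.07 at means of 0.465 and 0.289 CPM (edgeR adjusted p = 5.17e-07 and 7.74e-06). Ptprn, which encodes a granule membrane protein, was higher by 0.30 in log2 (edgeR adjusted p = 5.45e-08). In the mouse annotation Mir153 lies within the related gene Ptprn2 and not within Ptprn, so Ptprn is in the host list without that support. Ptprn2, named after its values were seen, was lower in batch 2, with a log2 difference of -0.24 (adjusted p = 1.37e-06). Poly(A) RNA of a host gene is not a measure of the mature microRNA.

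Of 10 genes of the piRNA pathway, the germline branch of small RNA silencing, Piwil2 alone had enough counts to be tested, with 8 to 19 counts per library (log2 fold change 0.43, edgeR adjusted p = 0.466). The other 9 had at most 10 counts in any library.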

How the data were processed

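Poly(A) RNA of 8 alphaTC6 libraries was measured. The deposited values are raw counts per gene, a column for each library, and 0 columns were left unmapped. The submitters' processing notes name FastQC, STAR, featureCounts, DESeq2 and the build mm10, without versions or roles, and the name of the deposited table mentions cutadapt. The annotation and strand setting are not given in the sources used here. All 55536 identifiers matched the mouse GENCODE annotation of GRCm38 (release M21), which supplied positions and exon lengths.

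Genes were kept with filterByExpr (16333) and scaled by TMM (factors 0.964 to 1.02). With edgeR 4.0.16 in R 4.3.3, a robust quasi-likelihood model holding batch and treatment terms (5 residual degrees of freedom) gave two-sided p-values, adjusted by Benjamini-Hochberg over all tested genes, with 0.05 as the threshold. The design text states edgeR with batch correction. The interaction had its own fit. Standard errors (SE) were derived from each log2 fold change and its F statistic, and intervals are 95% intervals. Log2 CPM used a prior count of 2. Without molecular identifiers, counts may include PCR duplicates. The fit was tested on simulated counts.

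The members and lists were chosen with earlier results of these data known. Per list and comparison, the called genes of smallest adjusted p, at most 3, were named, and other genes named for their role or level were chosen after their values were seen. Older symbols in the lists were counted once. Alternatives were leaving out the batch term, a replicate block, scaling by library size alone or by DESeq2 size factors, no filter or one at a mean of 5 CPM, DESeq2 1.42.0, edgeR's likelihood ratio test, limma-voom 3.58.1, each library left out, batch 1 alone, scramble libraries alone, and the longest transcript as length.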

Additional observations from a re-analysis of the deposited data

Results flagged for a closer look

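Within each treatment, the gap between the highest or lowest of the 4 libraries and its nearest neighbour was divided by the range of those libraries. Of 20 groups (10 genes in 2 treatments), 3 had a library standing apart by more than the 95% critical value of Dixon's test, where chance marks about 1 group in 20. Klf4 siRNA replicate 3, which alone represents its treatment in batch 2, was highest for Ago4, with a gap of 0.949 of the range (2.72 CPM against 0.569 to 0.679 CPM). Both scramble libraries of batch 2 were high as well. Scramble replicate 4 was lowest for Ago3, with a gap of 0.857 of the range (35.5 CPM against 43.6 CPM or more). Klf4 siRNA replicate 4 was highest for Drosha, with a gap of 0.839 of the range (190.0 CPM against 183.8 to 184.8 CPM), and still lay below all 4 scramble libraries.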

How the results depend on the processing

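The count of genes past the threshold after Klf4 siRNA was 1909. It was 409 without the batch term, 1232 with batch 1 alone and 934 to 2021 when each library was left out in turn (934 without scramble replicate 1, 1012 without scramble replicate 2 and 1232 without Klf4 siRNA replicate 3). Of the 10 members, 2 passed, against 0 without the batch term, 1 in edgeR's likelihood ratio test, 1 with batch 1 alone, and 1 to 4 with each library left out (1 without scramble replicate 1 or Klf4 siRNA replicate 3, and 4 without Klf4 siRNA replicate 4). Between batches 4 passed, against 2 among genes with a mean of at least 5 CPM, where Ago4 was not tested, and 3 to 5 with each library left out. The interaction had 0 genes, against 17 with no filter and 0 to 13 with a library left out (13 without scramble replicate 3). It could not be fitted without Klf4 siRNA replicate 3, which alone represents its treatment in batch 2. The cause of these shifts was not tested.

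With the replicate number as a block in place of batch, 1220 genes and 2 members passed after Klf4 siRNA, and Ago4 reversed to -0.35. The calls of Tut1 (edgeR adjusted p = 0.055), Smc4 (0.056) and Tsn (0.119) were lost under the block, and no other named pathway gene lost its treatment call there. Deviations of same-numbered libraries correlated at 0.492, 0.416, 0.72 and -0.34 for replicates 1 to 4. The labels put the 2 libraries numbered 4 in different batches and those of each other number in the same batch. The labels do not say that a number marks a shared culture, and not all 4 correlations were positive, so the fit without the block was kept.

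Some estimates changed sign, none of them past the threshold in either direction. After Klf4 siRNA, Ago4 turned from 0.22 to -0.43 without the batch term, and with batch 1 alone Ago3 was -0.028 and Dgcr8 -9e-04. Leaving out a library gave -0.038 to 0.039 for Ago2, -0.026 to 0.17 for Ago3 and -0.0016 to 0.031 for Dicer1. Between batches, Dgcr8 was -0.023 with library size alone and -0.011 in scramble libraries alone, and Drosha 0.0015 among genes of at least 5 CPM. Leaving out a library gave -0.16 to 0.075 for Ago3, -0.012 to 0.045 for Dgcr8, -0.046 to 0.0048 for Dicer1 and -0.028 to 0.0059 for Drosha. For the interaction, Drosha was -0.0085 with no filter. Leaving out a library gave -0.090 to 0.014 for Ago1, -0.035 to 0.19 for Ago2, -0.033 to 0.074 for Dicer1, -0.035 to 0.037 for Drosha, -0.012 to 0.076 for Tnrc6a and -0.016 to 0.13 for Tnrc6b. Ago1 and Tnrc6b were called between batches in every alternative run, as was Ago4 wherever it was tested. DESeq2 gave no adjusted p for Ago4 by treatment. Depth limits Ago4 most, with 19 to 183 counts per library.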
